A study of Homo sapiens with 4 samples.

Results

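The genes described here are 10 genes of the actin cytoskeleton and the contractile apparatus (ACTA2, TAGLN, CNN1, VCL, MYL9, TPM1, TPM2, FLNA, ACTN1 and CALD1), chosen by symbol from the 23228 genes of the count tables. All 10 were listed, and 9 of them were among the 13546 genes with enough reads to be tested. They were measured by RNA-seq in ES2 cells, an established human ovarian cancer cell line that the study uses as a cisplatin resistant model. The cells were grown in phenol red-free medium with charcoal-treated serum and received either vehicle or liquiritigenin (Liq), a plant flavanone used as an ERβ agonist, for 24 h. Each group had 2 samples, and all 4 came from this single cell line, 1 treatment and 1 time point. No source states that the samples of a group were separate cultures, so the p-values measure the spread between these samples only.

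Actin filaments give a cell its shape and, together with myosin II, its ability to contract and crawl. Tropomyosins, caldesmon, calponin and transgelin lie along the filament and control how myosin and other proteins reach it. Filamin and α-actinin link filaments into networks and bundles, and vinculin ties them to the adhesions that grip the matrix. Several of these genes (ACTA2, CNN1, TAGLN, MYL9) are classical markers of smooth muscle and of contractile fibroblasts, and are known targets of the transcription factor SRF, which binds a DNA element called the CArG box.

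The 4 samples held 34573053 to 48933893 reads assigned to genes, and the 10 genes took 0.390% to 0.452% of them. Levels are given as CPM, counts scaled to library size with edgeR's TMM factors, and changes as the log2 fold change of Liq over vehicle with its standard error (SE). A change was called at a Benjamini-Hochberg adjusted p under 0.05 in edgeR's quasi-likelihood test over all tested genes. For a single gene, the smallest p of an exact permutation test in this design is 0.333, so each call leans on the spread estimated jointly over genes. Of the markers of other cell types, those of smooth muscle other than the genes described here (MYH11, DES, MYOCD, LMOD1 and ACTG2) had at most 3 counts in any sample, with MYOCD at 0 in all 4 samples. The epithelial markers CDH1, EPCAM and KRT19 were at 0 to 3 counts, whereas KRT7, KRT18 and the mesenchymal marker VIM were abundant. These structural markers moved with Liq as well, KRT7 upward (log2 fold change 0.505, adjusted p = 1.08e-05, edgeR), and KRT18 (-0.24, adjusted p = 0.0132) and VIM (-0.28, adjusted p = 0.000341) downward. The mesenchymal cadherin CDH2 was higher (0.22, adjusted p = 0.0265, edgeR), while KRT8 and ZEB1 were not called. Of the markers of ovarian clear cell and Müllerian epithelium, PAX8 fell from 49 and 46 counts to 12 and 29 (log2 fold change -1.34, adjusted p = 0.00214, edgeR), as did WT1 from 168 and 181 to 98 and 140 (-0.68, adjusted p = 0.00285, edgeR). The endothelial markers summed to 44.7 to 53.1 CPM, nearly all of it from 1 of the 2 markers, since the other had at most 10 counts. The leukocyte markers summed to 66.4 to 77.4 CPM, from CD68, since PTPRC and CD3E had at most 1 count.

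Of the 9 tested genes, 3 were higher with Liq (ACTA2, CNN1 and TPM1) and 1 was lower (ACTN1), whereas 5 did not pass the threshold. Over all tested genes 12.6% were called higher and 11.3% lower, 24.0% in all. ACTA2 and CNN1 also rose by at least 1.5-fold and none of the 9 genes fell by as much, where 4.29% of all tested genes rose and 2.16% fell, 6.45% in all. The median log2 fold change of the 9 genes was 0.10, against 0.006 over all tested genes. The groups did not overlap for 5 of the 9 genes, with 4 of them higher in Liq, and for 61.7% of all tested genes, with Liq higher in 31.5%.

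**Figure D1:**
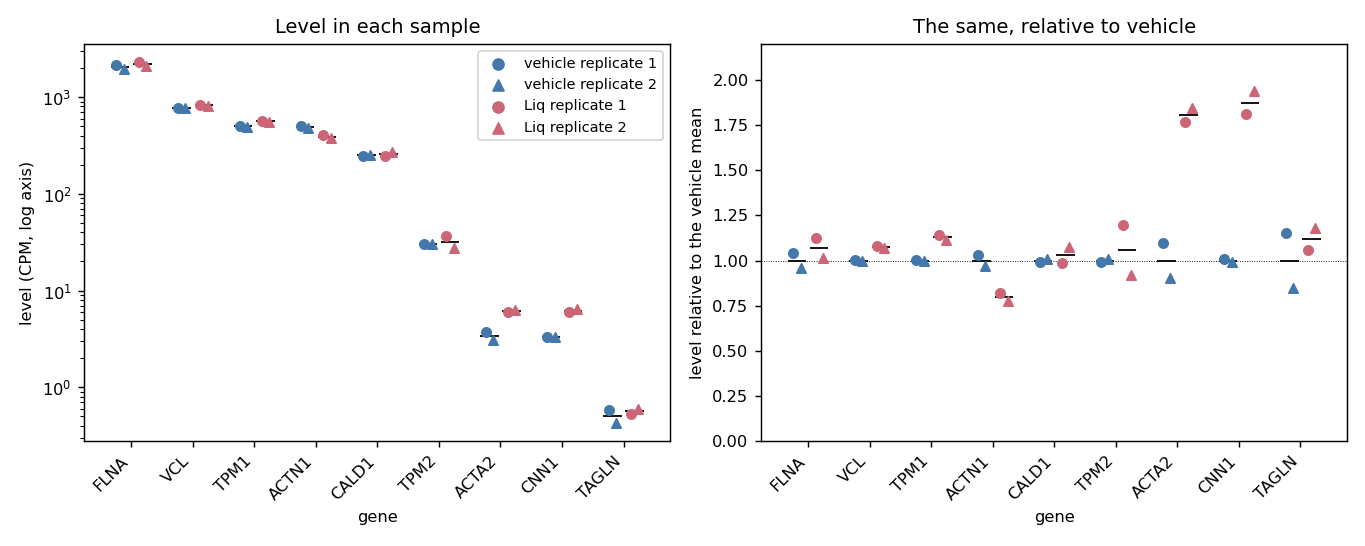
Levels of the 9 tested genes in each sample, as CPM on a log axis (left) and divided by the vehicle mean of the gene (right), with black lines at group means (n = 2). ACTA2 and CNN1 sit low on the left panel, at 3.10 to 6.42 CPM, and stand clear of vehicle on the right, while ACTN1 alone lies below vehicle in both Liq samples.

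Per unit of transcript length, the levels of these genes spanned a wide range. Dividing CPM by the length of the MANE Select transcript in kilobases (RPKM), the vehicle means ran from 408 for TPM1, 241 for FLNA, 139 for VCL and 132 for ACTN1 to 50.1 for CALD1 and 25.5 for TPM2. The next genes, ACTA2 at 2.54 and CNN1 at 2.21, lay well below TPM2, and TAGLN was at 0.134. In vehicle the neighbours VCL (139 in both samples) and ACTN1 (135 and 128) lay close, as did ACTA2 (2.78 and 2.30) and CNN1 (2.22 and 2.19). The order of the means was the same in Liq, with VCL (150 and 149) and ACTN1 (108 and 102) further apart and ACTA2 (mean 4.58) still next to CNN1 (mean 4.14). These levels depend on the transcript chosen, and the tables do not separate the muscle and non-muscle isoforms of TPM1, TPM2 and CALD1.

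Of the 4 classical smooth muscle markers among these genes, ACTA2 and CNN1 rose from a low level, TAGLN was low and not called, and MYL9 was at or near 0. ACTA2 encodes smooth muscle α-actin, the actin isoform of contractile cells. It lies on chromosome 10 from 90694831 to 90751096 on the minus strand (GRCh37, GENCODE annotation). It had 3.75 and 3.10 CPM in vehicle and 6.05 and 6.32 CPM in Liq, from 116 to 317 counts per sample. Both Liq samples were above both vehicle samples, by 0.85 on the log2 scale (SE 0.15, 1.80-fold, adjusted p = 0.000111, edgeR). CNN1 encodes calponin 1, which binds actin and slows myosin (chromosome 19 from 11649582 to 11661138). Its levels were 3.33 and 3.29 CPM in vehicle and 5.99 and 6.42 CPM in Liq, again without overlap, with a log2 fold change of 0.91 (SE 0.14, 1.88-fold, adjusted p = 3.74e-05, edgeR). The change was called in all 12 alternative fits for each gene, at log2 fold changes of 0.71 to 1.00 for ACTA2 and 0.77 to 0.99 for CNN1. Among all tested genes, CNN1 ranked 492 and ACTA2 595 by the size of the change, in either direction. In these bulk samples, more cells with a transcript and more of it per cell cannot be told apart.

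The summed level of the 5 other smooth muscle markers was 0 and 0.0486 CPM in vehicle and 0.0797 and 0.197 CPM in Liq, so the level of ACTA2 and CNN1 was not accompanied by these markers at this depth. Of the fibroblast markers, which summed to 1250 and 1160 CPM in vehicle and 1430 and 1290 CPM in Liq, COL1A1 was abundant and slightly higher with Liq (log2 fold change 0.17, adjusted p = 0.0457, edgeR), COL1A2, DCN and LUM had at most 7 counts, and PDGFRB rose from 50 and 40 counts to 89 and 102 (log2 fold change 0.97, adjusted p = 0.00223, edgeR). The part of these markers in the rise of ACTA2 and CNN1 was not tested. On the opposite strand ACTA2 shares 29.1% of its exonic sequence with ACTA2-AS1, which was not analysed here, and 6.75% with FAS. An unnamed GENCODE gene on the same strand shares 7.13% of it and was not analysed here. FAS was not called (log2 fold change 0.33, adjusted p = 0.0801, edgeR). Whether the reads were counted by strand is not given in the sources used here, and ACTA2 is also close in sequence to the other actins, so its count is uncertain in that respect.

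The promoter windows of ACTA2 and CNN1 are shown because these genes rose together. ACTA2 has 2 windows, and the one printed is that with matches, while the other, at chr10:88991288-88991587, had none. Each window holds 250 bases before and 50 after a transcript start site of RefSeq (GRCh38.p14), of which 16 windows were found for 8 of the 10 genes. Each was searched for the CArG box in its textbook form, CC followed by 6 bases that are A or T and then GG, and for the same element with 1 of its 6 inner bases replaced by C or G. The search covers both strands, since the element reads alike on each. Capitals mark the matches, which here are of the second kind and lie 121 and 71 bases before the ACTA2 start site. The printed ACTA2 window is at chr10:88952724-88953023 on the minus strand and the CNN1 window at chr19:11538601-11538900 on the plus strand.
ACTA2: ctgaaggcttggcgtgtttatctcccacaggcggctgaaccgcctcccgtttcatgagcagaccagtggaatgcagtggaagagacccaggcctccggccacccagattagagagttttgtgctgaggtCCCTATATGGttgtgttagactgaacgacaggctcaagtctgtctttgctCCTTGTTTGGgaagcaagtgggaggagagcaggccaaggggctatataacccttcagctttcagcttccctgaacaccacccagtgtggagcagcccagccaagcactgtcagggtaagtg
CNN1: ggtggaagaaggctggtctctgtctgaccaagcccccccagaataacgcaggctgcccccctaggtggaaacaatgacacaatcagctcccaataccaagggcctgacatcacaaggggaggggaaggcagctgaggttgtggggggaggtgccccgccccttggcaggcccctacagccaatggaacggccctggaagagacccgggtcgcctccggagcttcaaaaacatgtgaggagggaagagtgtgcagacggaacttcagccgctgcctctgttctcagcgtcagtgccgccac
No match was found in the CNN1 window, and sequence outside the windows was not searched. The textbook form was found in 2 of the 16 windows, as CCAATTAAGG in FLNA (chrX:154374585-154374884) and CCAAAAATGG in the window of ACTN1 at chr14:68977517-68977816, and in 1.29% of all 35116 windows. With either form there were matches in 4 of the 16 windows, the others being 1 each of ACTA2 and CALD1, and in 8.13% of all windows. FLNA, with the textbook form, did not pass the threshold. ACTN1, with it in the window at chr14:68977517-68977816 but with neither form in its other windows, was lower with Liq. Which start sites these cells used, and any part of the matches in the changes, was not tested.

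TAGLN encodes transgelin, an actin-binding protein of smooth muscle, and was not called (chromosome 11 from 117070086 to 117078180). It had 24 and 16 counts in vehicle and 19 and 30 in Liq, that is 0.584 and 0.427 CPM against 0.534 and 0.598 CPM, so the groups overlapped. The 95% interval of its log2 fold change, -0.55 to 0.88, reaches past the value of ACTA2, so a rise of that size was not detectable at this depth. On the opposite strand PCSK7 overlaps 34.1% of its exonic sequence, and PCSK7 was not called either (-0.125, adjusted p = 0.355, edgeR). An unnamed GENCODE gene on the same strand overlaps 38.1% of the TAGLN exons and was not analysed here. MYL9, which encodes the regulatory myosin light chain of smooth muscle (chromosome 20 from 35169900 to 35179850), had 0 counts in 3 samples and 1 count in Liq replicate 2. A count of 0 allows a level of up to 0.0598 to 0.0844 CPM in these libraries, and MYL9 was not tested.

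**Figure D2:**
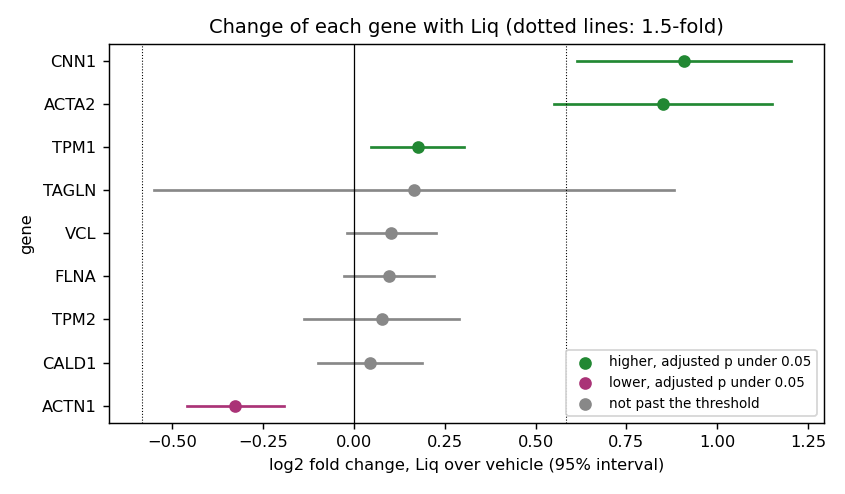
Log2 fold change of Liq over vehicle for the 9 tested genes with 95% intervals from the edgeR fit, and dotted lines at a 1.5-fold change. CNN1 (0.91) and ACTA2 (0.85) lie past the upper line, ACTN1 (-0.33) lies below 0, and TAGLN has the widest interval.

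The regulators of the thin filament, TPM1, TPM2 and CALD1, stayed within 1.5-fold of vehicle. TPM1 encodes an α-tropomyosin, which winds along the actin filament (chromosome 15 from 63334819 to 63364114). It had 498 and 495 CPM in vehicle and 567 and 554 CPM in Liq, so that the Liq samples were higher without overlap, by 1.13-fold (log2 fold change 0.175, SE 0.062, adjusted p = 0.0407, edgeR). This call is near the threshold, and it was lost in 5 of the 12 alternative fits, with adjusted p from 0.0529 (DESeq2) to 0.273 (without vehicle replicate 2). TPM1-AS, not analysed here, overlaps 18% of its exonic sequence on the opposite strand. TPM2 encodes β-tropomyosin (chromosome 9 from 35681989 to 35690053). Its vehicle samples lay together at 30.1 and 30.5 CPM, while the Liq samples were on either side of them, at 36.3 and 27.8 CPM. TPM2 was not called (log2 fold change 0.076, SE 0.10, adjusted p = 0.639, edgeR), and its value turned on which Liq library was kept. It was 0.26 without Liq replicate 2 (adjusted p = 0.0329, edgeR) and -0.125 without Liq replicate 1 (adjusted p = 0.392, edgeR). CALD1 encodes caldesmon, which restrains the binding of myosin to actin (chromosome 7 from 134429003 to 134655480). It had 249 and 253 CPM in vehicle and 247 and 270 CPM in Liq, with overlapping groups and a 95% interval of the log2 fold change of -0.10 to 0.19.

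Among the linkers of filaments, ACTN1 fell and FLNA and VCL did not pass the threshold. ACTN1 encodes α-actinin 1, which bundles filaments in stress fibres (chromosome 14 from 69340845 to 69446157, minus strand). It had 504 and 476 CPM in vehicle and 402 and 380 CPM in Liq. Both Liq samples were below both vehicle samples, by 1.25-fold (log2 fold change -0.33, SE 0.065, adjusted p = 0.000563, edgeR), and the decrease was called in all 12 alternative fits, at -0.37 to -0.24. FLNA, on the X chromosome from 153576892 to 153603002, encodes filamin A, which crosslinks actin into networks, and was the most abundant of the 10 genes in CPM, ranking 20 among all tested genes. It had 2135 and 1962 CPM in vehicle and 2304 and 2076 CPM in Liq, with overlapping groups (log2 fold change 0.096, SE 0.060, adjusted p = 0.259, edgeR). VCL encodes vinculin (chromosome 10 from 75754951 to 75881121). Its Liq samples, at 826 and 818 CPM, were both above the vehicle samples, at 766 and 764 CPM, but the difference was not called (log2 fold change 0.10, SE 0.060, adjusted p = 0.216, edgeR). AP3M1, on the opposite strand, overlaps 11.1% of its exonic sequence and was not called (-0.034, adjusted p = 0.773, edgeR). FLNA and VCL were called higher in 3 of the 12 alternative fits, among them that with offsets fitted along the expression level (log2 fold changes 0.21 and 0.20, adjusted p = 0.0145 and 0.0153).

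**Figure D3:**
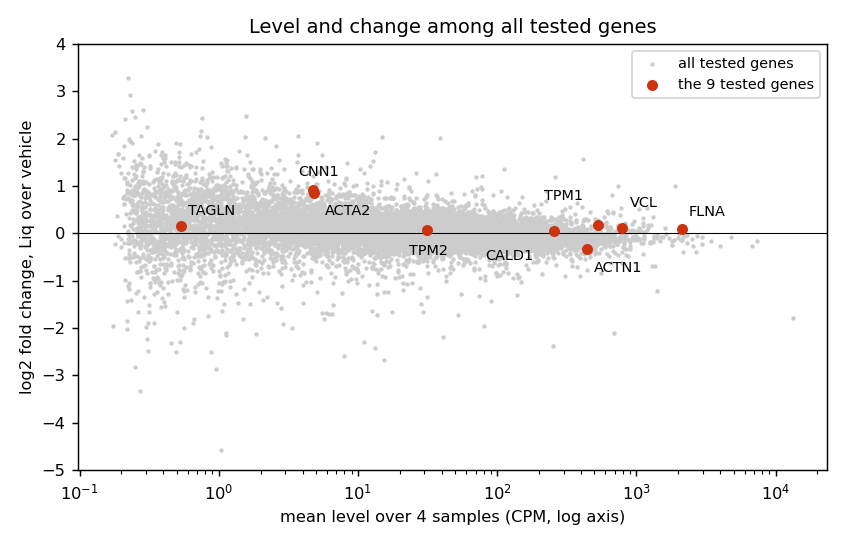
Mean level over the 4 samples (CPM, log axis) against the log2 fold change for all 13546 tested genes (grey) and the 9 tested genes described here (red). ACTA2 and CNN1 lie among genes of low level at 0.85 and 0.91, and ACTN1 lies below 0 at -0.33.

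The closest relatives of the 10 genes moved mostly downward. Of 21 such genes, 15 were tested, 9 of them were lower, 1 was higher and 5 did not pass the threshold, with a median log2 fold change of -0.205. Called in either direction were 66.7% of these relatives and 24.0% of all tested genes, and 11.3% of all tested genes were lower. With a 1.5-fold change required as well, 1 of the 15 tested relatives was called, as lower, and 6.45% of all tested genes. With library totals alone 6 of these relatives were lower and with offsets along the expression level 5, with 1 higher in each. The cytoplasmic actins, which build most filaments of non-muscle cells, were both lower. ACTB (β-actin) had 2878 and 2684 CPM in vehicle and 2457 and 2175 CPM in Liq (log2 fold change -0.26, adjusted p = 0.00208, edgeR), and ACTG1 (γ-actin) had 3858 and 3469 CPM against 3379 and 3149 CPM (-0.17, adjusted p = 0.0357, edgeR). ACTB was called in 11 of the 12 alternative fits and ACTG1 in 6, at log2 fold changes of -0.355 to -0.15 and -0.24 to -0.050. The transgelin relatives fell further. TAGLN2, the non-muscle form, went from 420 and 386 CPM to 282 and 276 CPM (-0.53, adjusted p = 1.36e-06, edgeR), and TAGLN3, known from neurons, from 46.1 and 43.3 CPM to 14.8 and 13.4 CPM (-1.67, adjusted p = 6.43e-13, edgeR). Per length, TAGLN2 was at 293 RPKM in vehicle, far above the 0.134 RPKM of TAGLN.

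The same division held for the regulatory light chains, which switch myosin II on when phosphorylated. MYL9 was at or near 0, whereas the non-muscle chains MYL12A and MYL12B were at 604 and 415 RPKM in vehicle. MYL12B was lower with Liq, at 496 and 470 CPM in vehicle and 358 in both Liq samples (-0.43, adjusted p = 1.75e-05, edgeR), and so was MYL12A by a smaller amount (-0.21, adjusted p = 0.0144, edgeR). These chains are close copies of each other, as are the actins, and reads that aligned to more than 1 place were left out of the counts, so their levels are uncertain. Of the tropomyosins, TPM4 was lower (-0.28, adjusted p = 0.00181, edgeR) and TPM3 too (-0.205, adjusted p = 0.0203, edgeR), while TPM1 was higher as given above. The calponin relative CNN2 was higher (0.35, adjusted p = 0.00131, edgeR), from 108 and 105 CPM to 143 and 129 CPM, and CNN3 did not pass the threshold (-0.040, adjusted p = 0.686, edgeR). ACTN4, the other non-muscle α-actinin, had a log2 fold change of 0.058 with a 95% interval of -0.076 to 0.19, and CTNNA1, the vinculin relative α-catenin, was lower (-0.33, adjusted p = 0.000518, edgeR). The differences between relatives in their response were not tested.

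Of 20 other smooth muscle genes 9 were tested, and 1 was higher and 3 were lower, that is 44.4% called in either direction against 24.0% of all tested genes. The higher gene was MYLK, the kinase of the light chains, at 318 and 309 CPM in vehicle and 359 and 375 CPM in Liq (0.23, adjusted p = 0.0121, edgeR). SMTN (smoothelin, -0.24), CSRP1 (a LIM protein, -0.215) and PDLIM5 (-0.25) were lower (adjusted p = 0.016, 0.0168 and 0.0446, edgeR). These 3 were called in 7, 8 and 5 of the 12 alternative fits, and MYLK in 10. With a 1.5-fold change required as well, 0 of the smooth muscle genes in this list were called. Of 16 tested genes of myosin II and its regulators, 1 was higher and 3 were lower (25% called, near the share over all genes). PPP1R14B, an inhibitor of the phosphatase that acts on the light chains, was lower by most (-0.63, adjusted p = 7.43e-07, edgeR). The other calls of this list were MYLK, MYL12A and MYL12B, which are also counted in the lists above. The split depended on the scaling, since with library totals alone 3 of the smooth muscle genes were higher and 0 lower, and with upper-quartile factors 2 were higher and 2 lower.

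SRF had 102 and 92.2 CPM in vehicle and 90.8 and 77.8 CPM in Liq and was not called (-0.20, SE 0.083, adjusted p = 0.0762, edgeR). Its coactivators MKL1 and MKL2, which sense free actin, were not called (0.038 with adjusted p = 0.801 and 0.096 with adjusted p = 0.468, edgeR), and MYOCD, the coactivator of smooth muscle, had 0 counts. Of 11 tested genes of SRF, its partners and coactivators, 27.3% were called, near the 24.0% over all tested genes. FHL1, a LIM protein, was higher (0.33, adjusted p = 0.00206, edgeR), and the SRF partners ELK1 and ELK3 were lower (-0.30 and -0.24, adjusted p = 0.00557 and 0.0147, edgeR).

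Of 48 tested genes of filament assembly and turnover, 19 were lower and 3 higher, with a median log2 fold change of -0.12, where 11.3% of all tested genes were lower and 12.6% higher. In either direction 45.8% of this list was called, 44% of the crosslinking and bundling genes and 34.6% of the adhesion genes, against 24.0% of all tested genes. With a 1.5-fold change required as well, 0 of 48 assembly genes, 1 of 25 crosslinking genes and 1 of 26 adhesion genes were called. The share over all tested genes was then 6.45%. The lower genes included CAPZA1, which caps filament ends (-0.435), the cyclase-associated proteins CAP1 (-0.38) and CAP2 (-0.44), and ARPC1B, a subunit of the Arp2/3 complex that branches filaments (-0.40), each called in all 12 alternative fits. With library totals alone the split was 11 lower and 5 higher. Of 25 crosslinking and bundling genes, 9 were lower and 2 higher. MSN (moesin, -0.435), PLS3 (plastin 3, -0.41) and SYNPO (synaptopodin, -0.48) were lower. LCP1, a plastin known from leukocytes, rose from 1.87 and 1.71 CPM to 5.20 and 6.02 CPM (1.65, SE 0.17, adjusted p = 3.72e-08, edgeR). Of the leukocyte markers, PTPRC and CD3E had at most 1 count and CD68 had 2538 to 3331 counts, with a log2 fold change of 0.016 (adjusted p = 0.914, edgeR). The split of this list was 4 lower and 5 higher with library totals alone, 4 and 4 with offsets along the expression level, and 7 and 4 with upper-quartile factors.

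**Figure D4:**
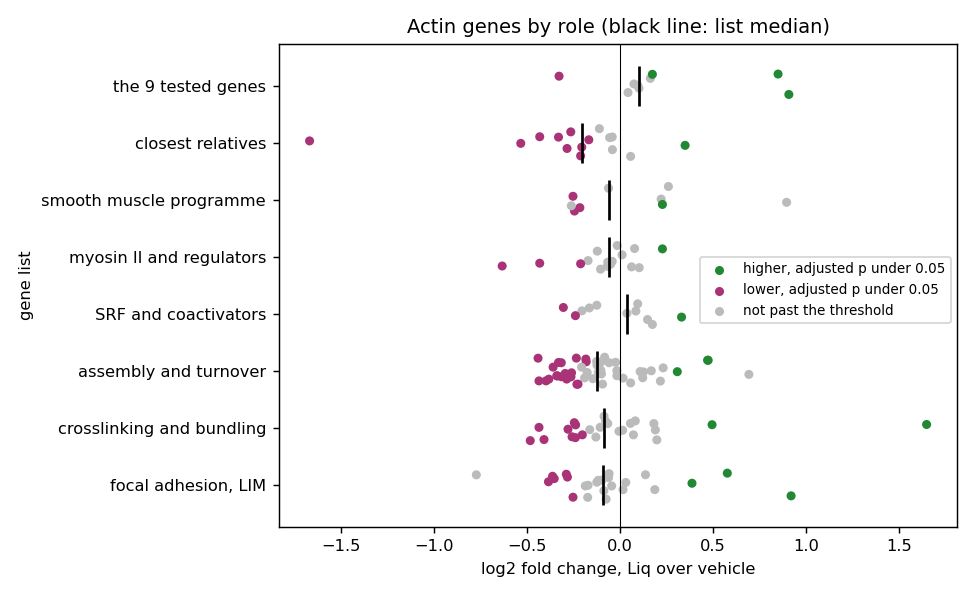
Log2 fold change of each tested gene in the lists by role, coloured by its call, with black lines at list medians. Most called genes of the closest relatives and of assembly and turnover lie below 0, at medians of -0.205 and -0.12, while the median of the 9 genes described here is 0.10.

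Of 26 tested genes of focal adhesions and stress fibre LIM proteins, 6 were lower and 3 higher. ZYX (zyxin, -0.38) and TNS3 (tensin 3, -0.35) were lower, and TES (testin, 0.58) and TLN2 (talin 2, 0.39) were higher. With library totals alone the adhesion genes split into 3 lower and 4 higher. Over all companion lists, with each gene counted once, 55 of 174 tested companion genes were lower and 12 higher, and 38.5% were called in either direction against 24.0% of all tested genes. The same counts were 29 lower and 23 higher with library totals alone, and 34 and 15 with offsets along the expression level. Requiring a 1.5-fold change left 4 of the 174 companion genes called, 2 higher and 2 lower, a smaller share than the 6.45% of all tested genes. Levels were not matched between the companion genes and all tested genes, and smaller changes can be called in abundant genes.

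The tested genes whose profile over the 4 samples was nearest to the mean profile of the 9 genes were TAP1, GHRLOS2 and AXL. Their Euclidean distances in centred log2 CPM were 0.00904, 0.0113 and 0.0173, against a median of 0.332 over all tested genes. The measure rests on 4 points and is a description of these samples.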

How the data were processed

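RNA-seq was performed on total RNA of 4 ES2 samples, 2 per group, grouped by sample title. According to the labels and the submitters' processing notes, the authors made TruSeq libraries, aligned single-end reads to hg19 with TopHat2 2.0.8b and counted reads per gene symbol with HTSeq. They deposited raw counts for each sample, neither normalized nor pooled. HTSeq's strand setting and annotation version are not given in the sources used here. Reads aligned to more than 1 place (35.63% to 36.23% of those tallied) are not in the gene counts, which lowers genes with close copies, and the 5 tally lines were left out of tests.

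Counts were analysed with edgeR 4.0.16 in R 4.3.3. Genes passed filterByExpr (minimum count 10, minimum total 15), libraries were scaled by TMM, and the groups were tested with glmQLFit and glmQLFTest over all genes that passed. SE is the log2 fold change divided by the square root of F, and 95% intervals use the fit's degrees of freedom. Gene positions are from GENCODE 44 on GRCh37. The fits were tested on simulated counts. Alternatives were other scaling factors, library totals alone, loess offsets along the expression level (span 0.3), other filters, DESeq2 1.42.0, a replicate block, each sample left out, and calls that require a 1.5-fold change.

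The 10 genes and the lists by role were chosen with earlier results of these data known. A marker and the genes of 1 companion list are not reported here by name, and that list is counted in the companion totals. Named were all 10 genes, in each list up to 4 called genes with the smallest p-value, ACTB, ACTG1, SRF, MKL1 and MKL2, the cell type markers, and the 3 nearest profiles. FAS, PCSK7, AP3M1, ACTA2-AS1 and TPM1-AS were named for their overlap, and CNN2, CNN3, TPM3, TPM4 and ACTN4 were named after their values were seen. Replicate counts differed by more than sampling noise (chi-square per degree of freedom 6.33 in vehicle and 11.1 in Liq), so no samples were merged. Depth limits the reading of low genes, and intervals and floors cover counting error or the fitted spread only.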

Additional observations from a re-analysis of the deposited data

How the results depend on the processing

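Over all tested genes there were 3245 calls, and 1413 to 3780 when 1 sample was left out, with 1413 without vehicle replicate 1 and 1542 without vehicle replicate 2. The lone sample of a group is then assumed to vary like the other group. The companion genes called numbered 67, and 26 to 68 when 1 sample was left out, 26 without vehicle replicate 1 and 34 without vehicle replicate 2. With a 1.5-fold change required as well, 874 genes in all, 4 companion genes, and 0 of the 10 genes as lower were called, and with an unadjusted p these were 1064, 7 and 0. The number of the 10 genes called higher was 3, and it was 5 with library totals alone, 5 with loess offsets and 5 with the replicate block, which in each case added FLNA and VCL, and it was 2 to 4 when 1 sample was left out. Their median log2 fold change was 0.18 with library totals alone and 0.204 with loess offsets, and library totals alone moved the median of all tested genes to 0.084. With library totals alone 75.4% of all calls were upward, against 52.8%. The replicate block rests on a shared number only, since same-numbered samples deviated together with a correlation of 0.0483. It gave 4795 calls in all, 95 of them companion genes. Low depth limits TAGLN and MYL9 most. The cause of these shifts was not tested.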
